A study of Mus musculus with 15 samples.

Results

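The 37 genes described here are listed as genes of the walls of brain blood vessels. The list covers endothelial cells, the blood-brain barrier that these cells form, and the mural cells (pericytes and smooth muscle cells) around them. The genes were taken by symbol from a list of names, 37 of the 21878 genes in the tables. All 37 passed the filter on low values, so none was lost to it. Expression of these genes by other cells of the cortex was not tested. Their level came from RNA-seq of prefrontal forebrain cortex in 15 mouse libraries, in units of FPKM (reads scaled for gene length and library size). WT water and WT nicotine were wildtype C57BL6/J mice, with 4 libraries each. DKO water (4 libraries) and DKO nicotine (3 libraries) were PS1/PS2 DKO mice, a double knockout of the presenilins that the series' title calls conditional. For 3 months, starting at an age of 8 months, the mice drank either plain water or 100 µg/ml of nicotine. The sources used here do not give the promoter or Cre line that limits the knockout to certain cells, and whether vascular cells carry it is not known. The labels give neither the sex of the mice nor whether each library is a separate mouse, and p-values can measure no more than how far these libraries lie apart.

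Presenilins are the catalytic subunits of gamma-secretase, the protease that cuts the amyloid precursor protein and the Notch receptors, and Notch signalling shapes arteries and mural cells. Endothelial cells of the brain differ from those of other organs: claudin 5, occludin and the scaffold protein ZO-1 seal the gaps between them, efflux pumps return drugs and toxins to the blood, and vesicle traffic across the cell is held low. Pericytes sit in the basement membrane of capillaries and are recruited through the receptor PDGFR-beta, while smooth muscle cells ring the arterioles and set their width. Nicotine acts on acetylcholine receptors, which vessel walls as well as neurons carry.

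Libraries held 16334904 to 19469215 reads in genes. The targeted gene Psen2 read 5.44 to 7.14 FPKM in the 8 WT libraries and 1.29 to 1.76 in the 7 DKO libraries. The sum of 8 excitatory neuron markers was 2585 to 3350 FPKM. All 37 vascular genes were detected in every library, on 38 to 8445 reads, and the defining endothelial markers Cldn5, Pecam1 and Cdh5 were well above 0 throughout. They make up a small part of a bulk sample, in which more vascular cells and more RNA per vascular cell cannot be told apart. The 4 Y-linked genes examined summed to 28.9 to 33.0 FPKM in WT water and 24.3 to 33.0 in DKO water, but to 0.0909 to 0.144 in WT nicotine. In DKO nicotine they summed to 35.9 and 36.6 FPKM in replicates 1 and 3 and to 0.233 in replicate 2. In WT, nicotine therefore cannot be told apart from this Y-linked difference. Both groups of the genotype comparison in water had Y-linked expression.

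Promoter windows from RefSeq (GRCm38.p6, the build of the files; 250 bases before to 50 after an annotated start) were found for 24 of the 37 genes, 30 windows in all. The 5 printed below belong to genes that the results turn on. Cldn5, Abcb1a and Ly6c1 were called higher in DKO in both drinking groups. Vtn was too, though in nicotine not in every alternative fit, and Gimap6 was called higher with nicotine in WT. Each window reads 5′ to 3′ along the gene's strand, and capitals mark matches, on either strand, to the motifs named after them.

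Cldn5, chr16:18776597-18776896, plus strand: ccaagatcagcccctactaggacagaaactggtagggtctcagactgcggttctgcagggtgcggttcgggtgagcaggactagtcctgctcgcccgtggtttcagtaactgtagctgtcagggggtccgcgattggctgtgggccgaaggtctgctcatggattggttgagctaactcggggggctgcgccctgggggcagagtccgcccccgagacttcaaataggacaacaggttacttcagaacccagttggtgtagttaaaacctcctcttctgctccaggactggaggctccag

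Abcb1a, chr5:8566841-8567140, plus strand: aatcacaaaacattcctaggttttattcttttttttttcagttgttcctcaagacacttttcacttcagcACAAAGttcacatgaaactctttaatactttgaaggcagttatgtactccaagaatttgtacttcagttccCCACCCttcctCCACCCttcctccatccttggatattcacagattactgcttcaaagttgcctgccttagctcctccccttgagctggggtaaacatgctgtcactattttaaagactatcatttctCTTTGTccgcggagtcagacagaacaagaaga

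Ly6c1, chr15:75048614-75048913, minus strand: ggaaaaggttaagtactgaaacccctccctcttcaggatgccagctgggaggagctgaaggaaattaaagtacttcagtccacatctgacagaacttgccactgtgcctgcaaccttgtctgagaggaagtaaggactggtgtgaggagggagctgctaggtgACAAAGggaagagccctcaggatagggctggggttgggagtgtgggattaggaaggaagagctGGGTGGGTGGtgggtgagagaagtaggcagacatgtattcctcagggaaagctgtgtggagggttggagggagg

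Gimap6, chr6:48708195-48708494, minus strand: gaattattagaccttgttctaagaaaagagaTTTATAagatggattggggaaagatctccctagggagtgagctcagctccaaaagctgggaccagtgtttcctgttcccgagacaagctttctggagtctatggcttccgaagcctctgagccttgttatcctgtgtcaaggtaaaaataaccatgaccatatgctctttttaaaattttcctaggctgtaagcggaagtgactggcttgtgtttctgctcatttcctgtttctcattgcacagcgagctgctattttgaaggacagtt

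Vtn, chr11:78498870-78499169, plus strand: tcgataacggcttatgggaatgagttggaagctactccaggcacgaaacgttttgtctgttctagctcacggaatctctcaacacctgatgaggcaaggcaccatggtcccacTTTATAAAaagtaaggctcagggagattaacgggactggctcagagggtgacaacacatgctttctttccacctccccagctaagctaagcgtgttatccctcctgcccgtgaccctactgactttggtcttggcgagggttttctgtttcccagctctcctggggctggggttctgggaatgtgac

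The motifs searched on both strands were the ETS core CCGGAA, SOX ACAAAG, KLF CCACCC, RBPJ GTGGGAA, the TATA sequence TATAAA and the CArG box of serum response factor, as textbook motifs of endothelial, flow-responsive, Notch-responsive and smooth muscle genes. The Abcb1a window holds 2 SOX and 2 KLF matches. The Ly6c1 window, 1 of 2 for that gene and shown because it has more matches, holds 1 SOX match and 2 KLF matches that overlap. The Gimap6 window holds 1 TATA match on the other strand, the Vtn window 2 overlapping TATA matches, and the Cldn5 window none of the 6 motifs. Over the 30 windows, KLF matches stood in 15, while 31.5% of all 32851 windows of this length held 1, and TATA matches in 26.7% against 13.6%. SOX matches stood in 16.7% against 18.7%, ETS cores in 6.67% against 14.9%, RBPJ in 6.67% against 6.38% and the CArG box in 3.33% against 1.63%. The only member window with a CArG box was that of Myl9, a contractile gene. These shares describe letters in a window and were not tested.

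Among mice that drank water, which asks how the knockout cortex differs without nicotine, vascular genes were higher in DKO. Of the 37 genes, 21 rose, 0 fell and 16 were not called, a call being an adjusted p below 0.05 (limma, Benjamini-Hochberg over all 12728 tested genes). Over all tested genes, 25.5% were called higher and 12.4% lower. The median difference of the 37 genes was 0.30 on the scale of log2(FPKM + 1), beside 0.05 for all tested genes, and 34 of 37 differences were positive. For 20 genes every DKO water library lay above every WT water library, which held for 24.0% of all tested genes. This scale understates the change of low genes. All 21 kept a positive difference in each alternative fit that tested them, and 17 kept the call in each; Anpep, Ocln, Sox18 and Tie1 did not. A filter at 5 FPKM left 5 of the 21 untested: Anpep, Ocln, Tie1, Sox17 and Xdh.

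**Figure D1:**
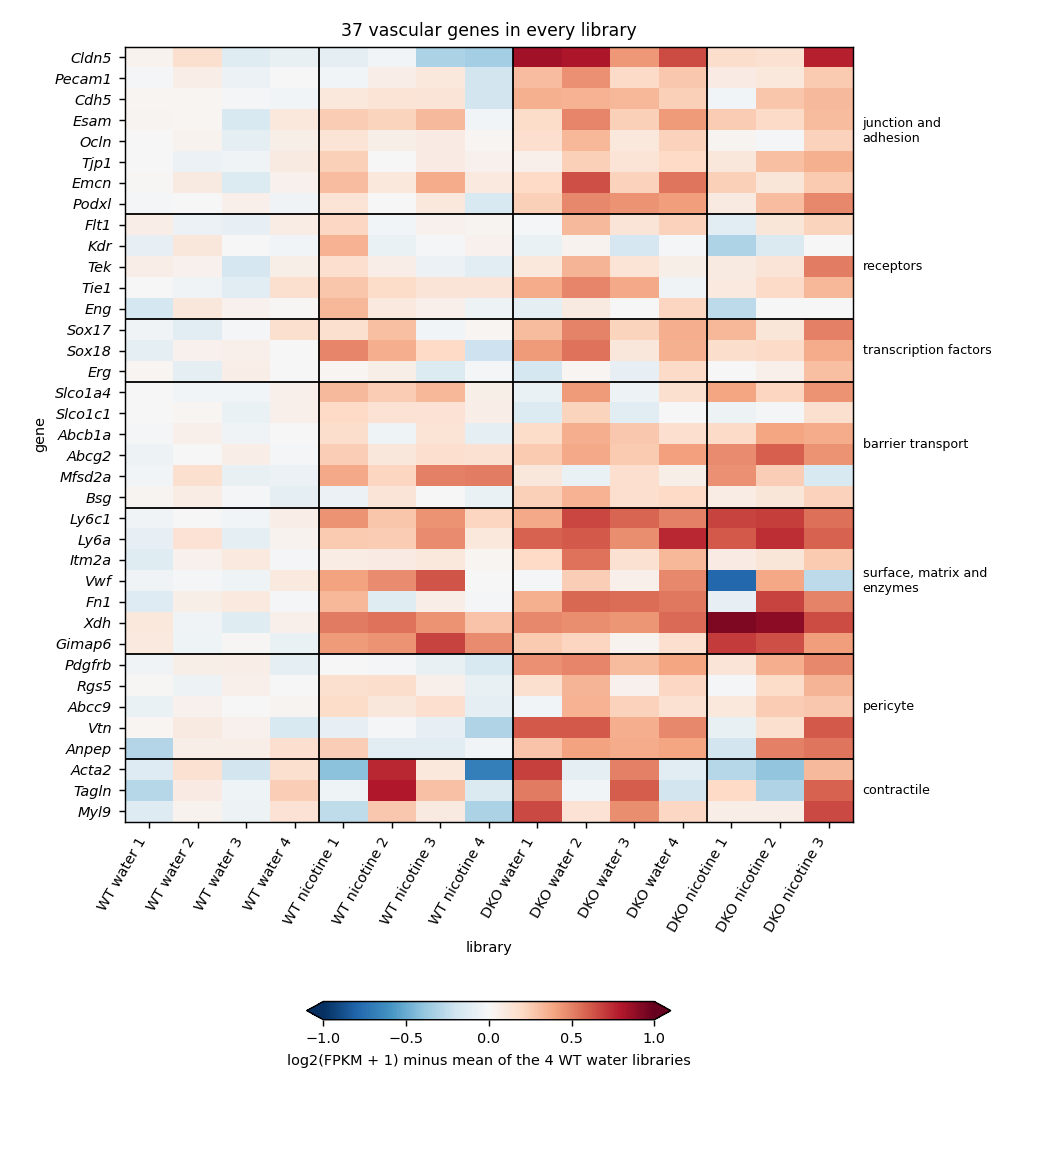
Level of the 37 genes (rows, by role) in each of the 15 libraries (columns), as log2(FPKM + 1) minus the mean of the 4 WT water libraries; red is higher and blue lower. The DKO water columns are red in most rows, DKO nicotine replicate 1 is paler than replicate 3 for Cldn5 and Vtn, and the contractile rows at the bottom differ from library to library within groups.

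Junction and adhesion genes moved together in DKO water, with 7 of 8 higher, beside 25.5% of all tested genes. Cldn5 (gene 12741, chromosome 16, 18776847 to 18778262), which encodes claudin 5, the main sealing protein of the barrier, read 19.2, 21.03, 17.1 and 17.8 FPKM in the WT water libraries, in replicate order, and 34.3, 33.6, 25.6 and 30.05 in DKO water. No libraries overlapped, and the means were 18.8 ± 1.73 and 30.9 ± 3.96 FPKM (SD, n = 4 each), a ratio of 1.64 (log2 change 0.68, SE 0.12, limma adjusted p = 0.000356). With nicotine, Cldn5 read 17.5, 18.4, 14.9 and 14.6 in WT and 21.3, 20.96 and 32.9 in DKO, so that DKO replicate 3 stood apart from the other two. Every DKO library exceeded every WT library in the nicotine groups (log2 change 0.56, SE 0.13, limma adjusted p = 0.00343). Without DKO nicotine replicate 3 the log2 change of Cldn5 there was 0.36, still called (limma adjusted p = 0.0239).

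Podxl (gene 27205, chromosome 6, 31519493 to 31563937), a sialomucin of the luminal surface, read 9.02, 9.17, 9.52 and 8.905 FPKM in WT water and 10.99, 13.1, 12.9 and 12.6 in DKO water (log2 change 0.40, SE 0.08, limma adjusted p = 0.000709). In nicotine the values were 10.1, 9.17, 9.93 and 8.14 in WT and 9.82, 11.6 and 13.1 in DKO, which overlapped, with a call (0.27, adjusted p = 0.0186 in limma) that was lost without DKO nicotine replicate 3 (adjusted p = 0.13). That call was also lost without WT nicotine replicate 4, after median-of-ratios rescaling and in a fit of only the groups compared (limma adjusted p = 0.0626, 0.0746 and 0.0578). Pecam1 (gene 18613, chromosome 11, 106654213 to 106715281), an adhesion molecule of endothelial contacts, read 5.89, 6.27, 5.67 and 5.91 in WT water and 7.59, 8.502, 6.93 and 7.36 in DKO water (log2 change 0.31, SE 0.07, limma adjusted p = 0.00215). Both genes separated the genotypes completely in water. Cdh5 (VE-cadherin, of adherens junctions) went from 4.3002 to 5.61 FPKM, Esam (an adhesion molecule at tight junctions) from 7.33 to 9.51 and Emcn (endomucin, a surface sialomucin) from 3.67 to 5.21. Ocln, occludin, rose from 1.48 to 1.87 FPKM, with an adjusted p of 0.0247 in limma that passed 0.05 when any of 4 libraries was left out. Tjp1, the scaffold ZO-1, was not called, at 14.8 and 16.6 FPKM (adjusted p = 0.0575 in limma).

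In the nicotine groups, Cldn5 and Podxl were the 2 of 8 junction genes called higher in DKO, a share near the 24.6% of all tested genes. The other 6 had differences of -0.01 (Emcn) to 0.16 (Pecam1 and Tjp1) and adjusted p-values of 0.0666 and above in limma. Emcn means were 4.44 in WT nicotine and 4.39 in DKO nicotine, against 3.67 and 5.21 in water.

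Among the 5 receptors of angiogenic ligands, 1, Tie1, was called higher in DKO water, a share near the 25.5% of all tested genes. Tie1 (gene 21846, chromosome 4, 118471191 to 118489849), the orphan partner of the angiopoietin receptor Tie2, read 2.79, 2.71, 2.52 and 3.24 FPKM in WT water and 3.91, 4.34, 3.95 and 2.71 in DKO water, with DKO replicate 4 inside the WT range (log2 change 0.30, SE 0.10, limma adjusted p = 0.0196). That call was lost without WT water replicate 3 or DKO water replicate 1, 2 or 3. Flt1 (gene 14254, chromosome 5, 147561604 to 147726438), VEGF receptor 1, read 9.37, 8.48, 8.33 and 9.39 in WT water, 10.4, 8.69, 9.18 and 9.09 in WT nicotine, 8.79, 11.4, 9.81 and 10.6 in DKO water and 8.19, 9.73 and 10.5 in DKO nicotine. Its groups overlapped, and no comparison called it. Kdr, VEGF receptor 2, had means of 3.05, 3.29, 2.903 and 2.64 FPKM in the same order, Tek (Tie2) of 3.74, 3.798, 4.299 and 4.64, and Eng (endoglin, a TGF-beta co-receptor) of 5.797, 6.34, 6.05 and 5.39. None of these 3 was called in any comparison. For Kdr the difference of DKO from WT in water was -0.05 with a 95% interval of -0.24 to 0.13 on the log2 scale. In the nicotine groups Kdr and Eng were lower in DKO by 0.23 and 0.20 without a call (limma adjusted p = 0.0688 and 0.126), and were called lower after median-of-ratios rescaling. Kdr was also called lower without WT nicotine replicate 2 or DKO nicotine replicate 3 (limma adjusted p = 0.0402 and 0.0395). Reads of Eng and of Fpgs, whose annotated spans overlap, could be confused if strand was not used in counting.

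Of the endothelial transcription factors, both SOX genes rose in DKO water and Erg did not, in a comparison that called 25.5% of all tested genes higher. Sox17 (gene 20671, chromosome 1, 4490928 to 4497426), a factor of arterial identity, read 1.09, 0.981, 1.12 and 1.398 FPKM in WT water and 1.66, 2.03, 1.498 and 1.76 in DKO water (log2 change 0.35, SE 0.10, limma adjusted p = 0.00833). Sox18 (gene 20672, chromosome 2, 181669837 to 181671640), a related factor of vessel development, read 3.403, 3.86, 3.87 and 3.699 in WT water and 5.33, 5.84, 4.08 and 5.03 in DKO water (log2 change 0.36, SE 0.12, limma adjusted p = 0.0244). Neither gene overlapped between the genotypes in water. In nicotine Sox18 read 5.61, 5.04, 4.41 and 3.07 in WT and 4.31, 4.38 and 5.09 in DKO, with the WT libraries spread wider than the DKO ones and no call. Erg, an ETS factor that maintains endothelial identity, had group means of 1.79 to 2.07 FPKM.

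**Figure D2:**
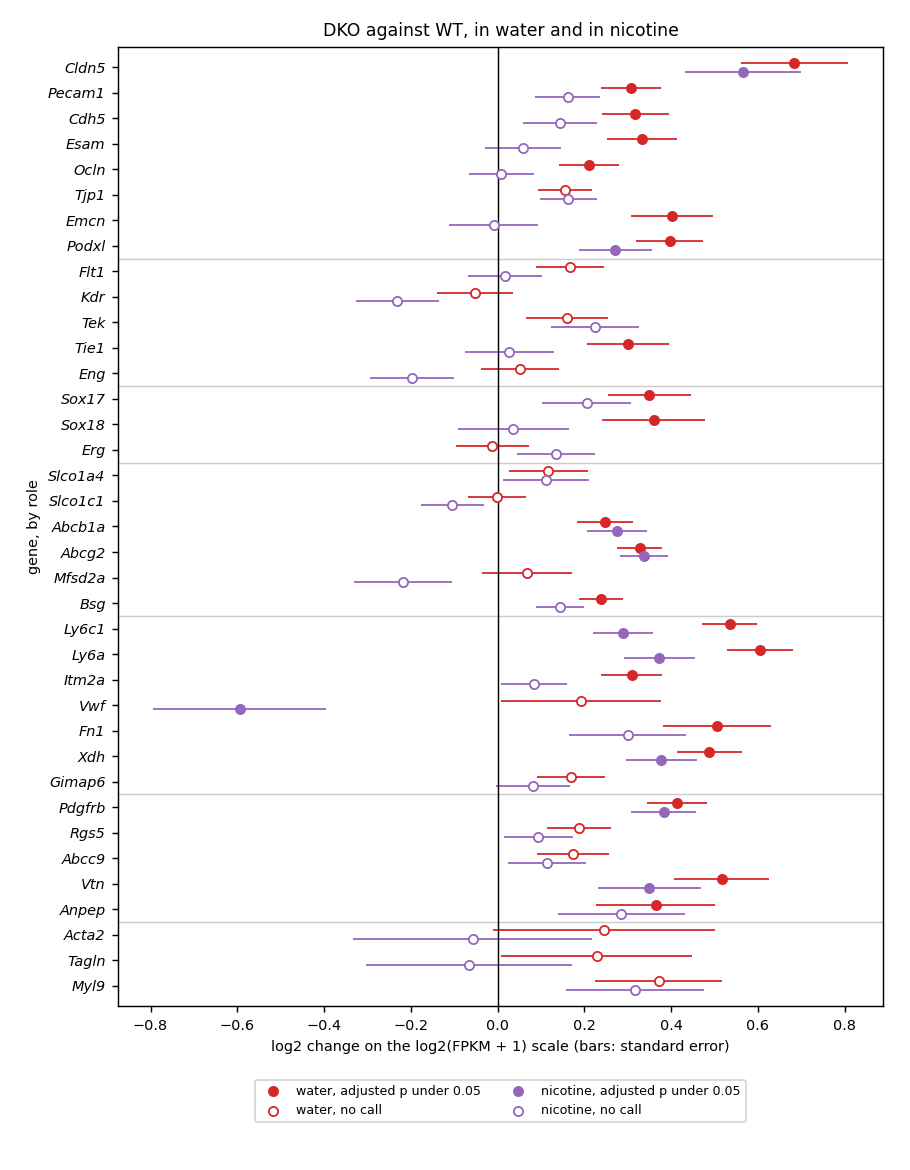
Difference of DKO from WT for each of the 37 genes, on the log2(FPKM + 1) scale, in water (red) and in nicotine (purple); bars are standard errors, and filled points had an adjusted p under 0.05. Most red points are filled and right of 0, and Vwf in nicotine, at -0.59, is the 1 filled point left of 0.

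Barrier transport divided into genes that rose in DKO and genes that did not, with 3 of 6 called higher in water, beside 25.5% of all tested genes. Abcg2 (gene 26357, chromosome 6, 58584491 to 58692451) encodes the efflux pump BCRP. It read 5.82, 6.09, 6.401 and 6.01 FPKM in WT water, 7.39, 6.65, 6.94 and 6.86 in WT nicotine, 7.47, 8.19, 7.51 and 8.39 in DKO water and 8.804, 9.71 and 8.66 in DKO nicotine. The 4 groups did not overlap in that order, and the DKO differences were alike in size in water (log2 change 0.33, SE 0.05, limma adjusted p = 9.67e-05) and in nicotine (log2 change 0.34, SE 0.06, limma adjusted p = 0.000181). Abcb1a (gene 18671, chromosome 5, 8567091 to 8748575), the efflux pump P-glycoprotein, read 8.06, 8.47, 7.93 and 8.19 in WT water and 9.42, 10.8, 10.1 and 9.31 in DKO water. In nicotine it read 9.34, 7.91, 9.06 and 7.56 in WT and 9.48, 11.01 and 10.8 in DKO, again without overlap. Its differences were 0.25 (SE 0.06, limma adjusted p = 0.00643) and 0.28 (SE 0.07, limma adjusted p = 0.00575). Its close copy Abcb1b stood at group means of 1.01 to 1.36 FPKM, and its span overlaps that of Rundc3b, so some reads could be shared.

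Bsg (gene 12215, chromosome 10, 79704358 to 79711979), basigin, the glycoprotein that carries lactate transporters to the membrane, was the most abundant of the 37 genes per length. It read 211, 218, 205 and 195 FPKM in WT water and 244, 263, 233 and 238 in DKO water (log2 change 0.24, SE 0.05, limma adjusted p = 0.00153). With nicotine it read 199, 226, 207 and 197 in WT and 218, 225 and 243 in DKO, which overlapped. Limma on all libraries did not call it there, while limma voom did (adjusted p = 0.0397), as did the fits without WT water replicate 4, WT nicotine replicate 2, DKO water replicate 2 or DKO nicotine replicate 1. The organic anion transporters Slco1a4 and Slco1c1 and the lipid transporter Mfsd2a, which holds vesicle traffic low, were not called between genotypes: Slco1c1 means were 15.7 in WT water and 15.7 in DKO water. Mfsd2a was lower in DKO by 0.22 in the nicotine groups, and without DKO nicotine replicate 1 it was called lower (-0.36, limma adjusted p = 0.0198).

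Surface, matrix and enzyme genes gave the smallest p-values, with 5 of 7 higher in DKO water, beside 25.5% of all tested genes. Ly6c1 (gene 17067, chromosome 15, 75044018 to 75048920), a surface antigen of brain endothelium, read 13.1, 13.4, 13.1 and 14.1 FPKM in WT water and 17.8, 21.95, 20.6 and 19.5 in DKO water (log2 change 0.53, SE 0.06, limma adjusted p = 5.86e-06). In nicotine it read 18.7, 16.5, 18.7 and 15.7 in WT and 22.1, 22.2 and 20.2 in DKO (log2 change 0.29, SE 0.07, limma adjusted p = 0.0037). The DKO libraries exceeded all WT libraries of the same drink, and the near copy Ly6c2 was at most 0.415 FPKM. Ly6a (gene 110454, chromosome 15, 74994877 to 74998031), the related antigen Sca-1, read 15.2, 17.97, 14.97 and 16.5 in WT water, 19.5, 19.5, 22.8 and 17.4 in WT nicotine, 24.7, 25.1, 22.7 and 27.8 in DKO water and 25.2, 27.5 and 24.8 in DKO nicotine. It rose with the knockout by 0.60 in water and 0.37 in nicotine (limma adjusted p = 9.27e-06 and 0.00202).

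Xdh (gene 22436, chromosome 17, 73883895 to 73950397) encodes xanthine dehydrogenase, an enzyme of purine breakdown. It read 2.05, 1.76, 1.603 and 1.93 FPKM in WT water, 3.06, 3.12, 2.87 and 2.45 in WT nicotine, 2.95, 2.91, 2.85 and 3.18 in DKO water and 4.41, 4.26 and 3.46 in DKO nicotine. WT nicotine and DKO water overlapped, while WT water was below and DKO nicotine above all others. The DKO differences were 0.49 in water and 0.38 in nicotine (SE 0.08 each, limma adjusted p = 8.34e-05 and 0.00179). Itm2a (gene 16431, chromosome X, 107397195 to 107403360), a membrane protein enriched in brain endothelium, read 28.1, 31.5, 32.7 and 30.1 in WT water, 32.3, 32.3, 32.98 and 31.1 in WT nicotine, 35.3, 45.1, 34.1 and 38.8 in DKO water and 32.4, 33.3 and 36.9 in DKO nicotine. It was called in water (0.31, limma adjusted p = 0.00233) and not in nicotine (0.08). Fn1, the matrix protein fibronectin, rose from 10.5 ± 0.782 to 15.3 ± 1.11 FPKM in water (SD, n = 4 each).

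Vwf (gene 22371, chromosome 6, 125552948 to 125686679), von Willebrand factor, the platelet-binding protein stored in endothelial cells, was the 1 member that limma on all libraries called lower in any comparison. It read 3.48, 3.52, 3.45 and 3.89 FPKM in WT water, 5.06, 5.36, 6.08 and 3.58 in WT nicotine, 3.55, 4.43, 3.75 and 5.396 in DKO water and 1.66, 5.01 and 2.83 in DKO nicotine. The DKO nicotine libraries spread from 1.66 to 5.01 FPKM, and they overlapped WT nicotine (log2 change -0.59, SE 0.20, limma adjusted p = 0.0285). The call was lost without any of WT nicotine replicates 1, 2 and 3 or DKO nicotine replicates 1 and 3, with an adjusted p of 0.199 in limma without DKO nicotine replicate 1.

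Pericyte genes followed the endothelial ones in DKO water, with 3 of 5 higher, beside 25.5% of all tested genes. Pdgfrb (gene 18596, chromosome 18, 61045127 to 61085067), the receptor that recruits pericytes, read 4.39, 4.76, 4.78 and 4.17 FPKM in WT water and 6.58, 6.73, 5.88 and 6.24 in DKO water (log2 change 0.41, SE 0.07, limma adjusted p = 0.000191). In nicotine it read 4.52, 4.45, 4.25 and 3.98 in WT and 5.02, 6.11 and 6.69 in DKO (log2 change 0.38, SE 0.08, limma adjusted p = 0.000855). No library of one genotype overlapped the other in either drink. Vtn (gene 22370, chromosome 11, 78499120 to 78502325), vitronectin, a matrix protein made by brain pericytes, read 39.4, 41.3, 39.9 and 34.8 in WT water and 59.8, 59.8, 50.2 and 54.4 in DKO water (log2 change 0.52, SE 0.11, limma adjusted p = 0.00132). Its nicotine values were 36.5, 38.6, 36.6 and 31.4 in WT and 36.7, 43.4 and 59.9 in DKO, with DKO replicate 1 inside the WT range. The difference there was called (0.35, limma adjusted p = 0.0289), but without DKO nicotine replicate 3 it was 0.16 with an adjusted p of 0.215. The call was also lost without WT nicotine replicate 4 (limma adjusted p = 0.0865). With rescaling, no filter, the replicate block or only the groups compared it was lost too (limma adjusted p of 0.0536 to 0.0778). Anpep (gene 16790, chromosome 7, 79821803 to 79848210), aminopeptidase N, read 1.42, 2.09, 2.11 and 2.33 in WT water and 2.62, 2.92, 2.83 and 2.902 in DKO water, with no overlap. Its adjusted p of 0.0449 in limma passed 0.05 in 10 of the 15 fits that left out 1 library. Rgs5, a regulator of G-protein signalling that marks pericytes, went from 22.98 ± 0.677 to 26.4 ± 2.35 FPKM and Abcc9, a subunit of their potassium channel, from 1.42 ± 0.0835 to 1.75 ± 0.298 (SD, n = 4 each), without a call (limma adjusted p = 0.0541 and 0.11).

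Contractile smooth muscle genes were called by limma for 0 of 3 in every comparison, with 1 unadjusted p under 0.05, that of Myl9 in DKO water. Limma voom called it (adjusted p = 0.0418), as did 5 other alternatives. Myl9 (gene 98932, chromosome 2, 156775408 to 156781657), a myosin light chain, read 12.8, 14.5, 13.6 and 15.7 FPKM in WT water, 11.7, 17.2, 15.1 and 11.1 in WT nicotine, 22.9, 15.7, 19.9 and 16.5 in DKO water and 14.9, 14.9 and 22.9 in DKO nicotine. Acta2, smooth muscle actin, read 5.55, 6.98, 5.31 and 6.98, then 4.39, 11.1, 6.72 and 3.45, then 10.5, 5.68, 9.17 and 5.66, then 4.89, 4.46 and 7.99 in the same order of groups. Tagln, the actin-binding protein SM22, ranged over 4.14 to 6.398, 4.65 to 9.897, 4.52 to 8.502 and 4.07 to 8.41. Its span overlaps that of Pcsk7, which had group means of 4.30 to 5.06 FPKM, so reads could be confused if strand was not used in counting. WT nicotine replicate 2, DKO water replicates 1 and 3 and DKO nicotine replicate 3 were the high libraries of their groups for all 3 genes. This spread within groups was wider than that of the pericyte genes, with standard errors of 0.15 for Myl9, 0.22 for Tagln and 0.26 for Acta2 in the water comparison. At that spread the difference of Acta2 in water (0.25) had a 95% interval of -0.29 to 0.79.

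**Figure D3:**
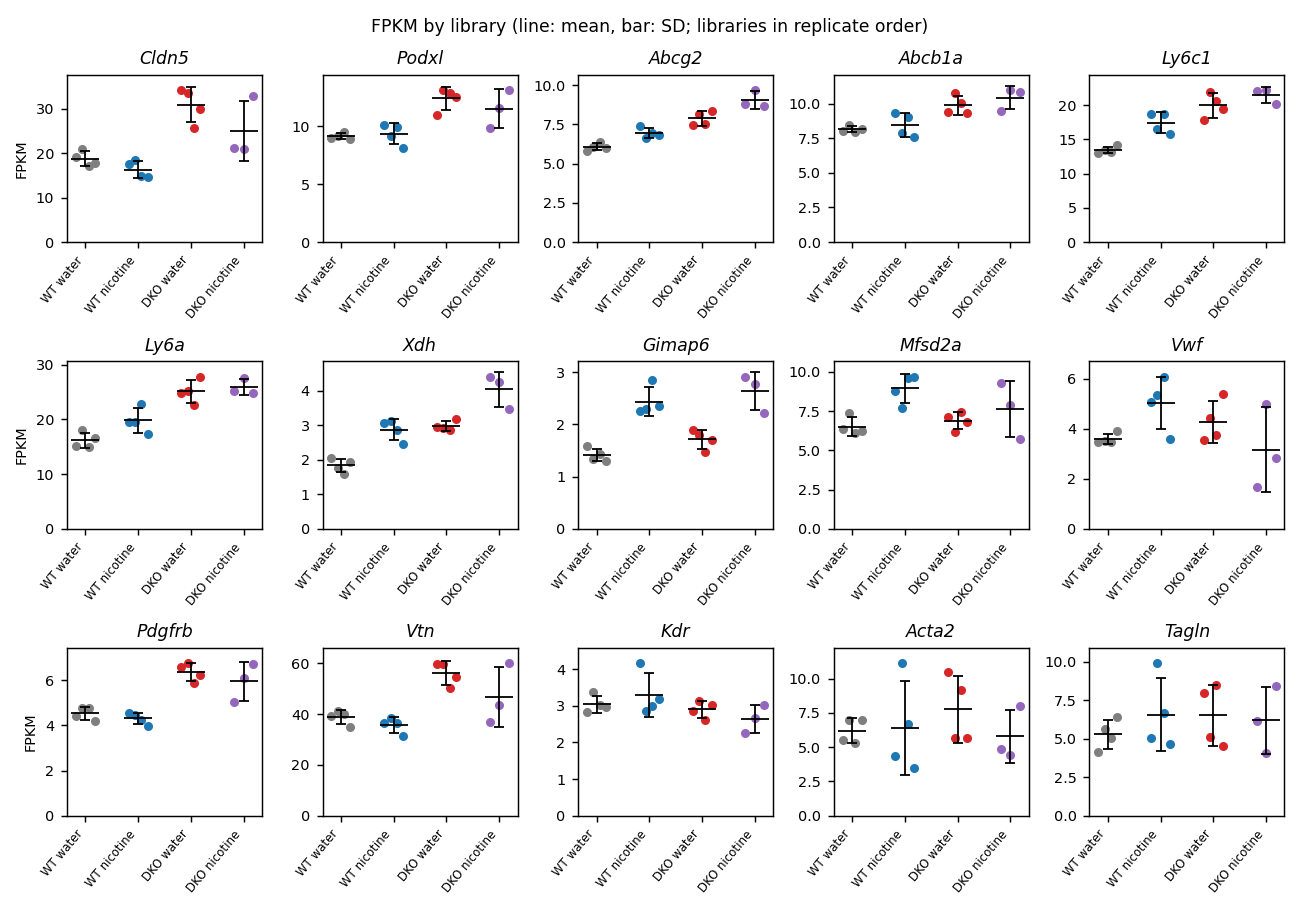
FPKM of 15 of the 37 genes in each library (points) with the mean (line) and SD (bar) of each group, 4 libraries each except DKO nicotine with 3. Abcg2, Ly6c1 and Pdgfrb separate the genotypes in either drink, Xdh and Gimap6 are higher with nicotine in either genotype, and Acta2 and Tagln overlap throughout.

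With nicotine in both groups, 9 of the 37 genes were higher in DKO than in WT, 1 was lower and 27 were not called, against 24.6% called higher and 11% lower over all tested genes. The members called higher were 24.3% of the 37, a share near that of all tested genes. The median difference was 0.13, beside 0.06 for all tested genes. For 7 members every DKO library lay above every WT library, against 25.8% of all tested genes. The 9 genes called higher were Cldn5, Podxl, Abcg2, Abcb1a, Xdh, Ly6a, Ly6c1, Pdgfrb and Vtn, and each was also among the 21 called in water. The overlap was 42.9% of the water calls and 100% of the nicotine calls. How far the calls of all tested genes overlap between the 2 comparisons was not examined. The groups of the 2 comparisons share no library, but both came from the same fit of all 15 libraries, which shares its estimate of the spread. Of the 10 calls in either direction, 7 held in each alternative fit that tested the gene, and those of Podxl, Vtn and Vwf did not. Without DKO nicotine replicate 1 the count called higher rose to 14, and without replicate 3 it was 7. The WT nicotine libraries lack Y-linked expression and 2 of the 3 DKO nicotine libraries have it. All 4 Y-linked genes were called higher in DKO nicotine (median 2.09), and genotype cannot be fully told apart from that difference here. Without DKO nicotine replicate 2, which lacks Y-linked expression, 10 members were higher and 1 lower. In that fit every DKO nicotine library has Y-linked expression and every WT nicotine library lacks it, so it cannot separate the 2.

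In WT mice, nicotine against water asks what the drug does to otherwise normal cortex. Of the 37 genes, Gimap6, Xdh and Ly6c1 were higher and 0 were lower, while 0.0943% of all tested genes were called higher and 0.0786% lower. The median difference was 0.08, beside 0.00 for all tested genes, and 28 of 37 were positive. For 8 members every nicotine library lay above every water library, against 3.14% of all tested genes.

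Gimap6 (gene 231931, chromosome 6, 48701583 to 48708244), a GTPase of the immunity-associated family, read 1.58, 1.34, 1.43 and 1.31 FPKM in WT water, 2.25, 2.29, 2.85 and 2.35 in WT nicotine, 1.89, 1.795, 1.47 and 1.71 in DKO water and 2.91, 2.78 and 2.23 in DKO nicotine. Nicotine libraries lay above the water libraries in each genotype, on 38 to 84 reads a library. The means in WT were 1.41 ± 0.122 and 2.43 ± 0.281 FPKM (SD, n = 4 each), a ratio of 1.72 (log2 change 0.51, SE 0.08, limma adjusted p = 0.00765). Xdh means were 1.84 ± 0.198 and 2.88 ± 0.302 (SD, n = 4 each; log2 change 0.45, SE 0.08, limma adjusted p = 0.0131), and those of Ly6c1 13.4 ± 0.491 and 17.4 ± 1.54 (SD, n = 4 each; log2 change 0.35, SE 0.06, limma adjusted p = 0.03). Gimap6 lost the call only with limma voom on recovered reads (adjusted p = 0.0566), Xdh when any of 5 libraries was left out and Ly6c1 under 10 alternatives. None of the 3 genes lies on a sex chromosome, and the part of the Y-linked difference in their values cannot be told apart from nicotine here.

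Among the other genes without overlap in WT, Mfsd2a, singled out after its values were seen, read 6.38, 7.37, 6.12 and 6.22 FPKM in water and 8.78, 7.71, 9.62 and 9.704 in nicotine, a difference of 0.40 without a call (limma adjusted p = 0.205), though called without DKO nicotine replicate 3 (adjusted p = 0.0492). Its DKO libraries read 7.11, 6.17, 7.44 and 6.81 in water and 9.32, 7.902 and 5.76 in nicotine, which overlapped. Slco1a4 read 10.4 to 11.004 in WT water and 11.04 to 13.6 in WT nicotine, and Slco1c1 14.9 to 16.2 and 16.4 to 18.1. These transporters stood 0.24 and 0.14 higher on the log2 scale, also without a call. Cldn5 and Vtn were lower in the WT nicotine mean by 0.19 and 0.12, with no call.

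In DKO mice, 0 of the 37 genes were called between nicotine and water by limma, 6 had an unadjusted p under 0.05, and limma voom called Xdh (adjusted p = 0.0475). Over all tested genes, 0.102% were called higher and 0.055% lower. The members' median was -0.09, beside 0.01 for all tested genes, and 13 of 37 differences were positive. Abcg2, Xdh and Gimap6 were the 3 members for which every nicotine library lay above every water library, against 6.91% of all tested genes. Gimap6 stood 0.42 higher (SE 0.08, limma adjusted p = 0.0634) and Xdh 0.34 higher (SE 0.08, limma adjusted p = 0.0993). Without DKO nicotine replicate 2, all libraries in this comparison had Y-linked expression, and the differences were 0.39 for Gimap6 and 0.31 for Xdh (limma adjusted p = 0.168 and 0.239). Cldn5 was lower by 0.31 and Vtn by 0.28, without a call, with nicotine replicates 1 and 2 at or below 43.4 FPKM of Vtn and replicate 3 at 59.9. Without DKO nicotine replicate 3, Xdh and Gimap6 were called higher and Vtn lower (-0.48, limma adjusted p = 0.0306).

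Averaged over the genotypes, a comparison added after the data were seen, 4 of the 37 genes were called higher in nicotine than in water, against 0.44% of all tested genes. Gimap6 rose by 0.46, Xdh by 0.39, Ly6c1 by 0.23 and Abcg2 by 0.17 (limma adjusted p = 0.00104, 0.00342, 0.0393 and 0.0473). This count was 2 in 9 of the 15 fits that left out 1 library: WT water replicates 1, 2 and 3, WT nicotine replicates 1 and 3, DKO water replicates 1 and 3 and DKO nicotine replicates 1 and 2. Abcg2 lost its call in 12 of these 15 fits and Ly6c1 in 10. All 4 Y-linked genes were called lower in this average (median -1.80), and nicotine cannot be told apart from that difference here.

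**Figure D4:**
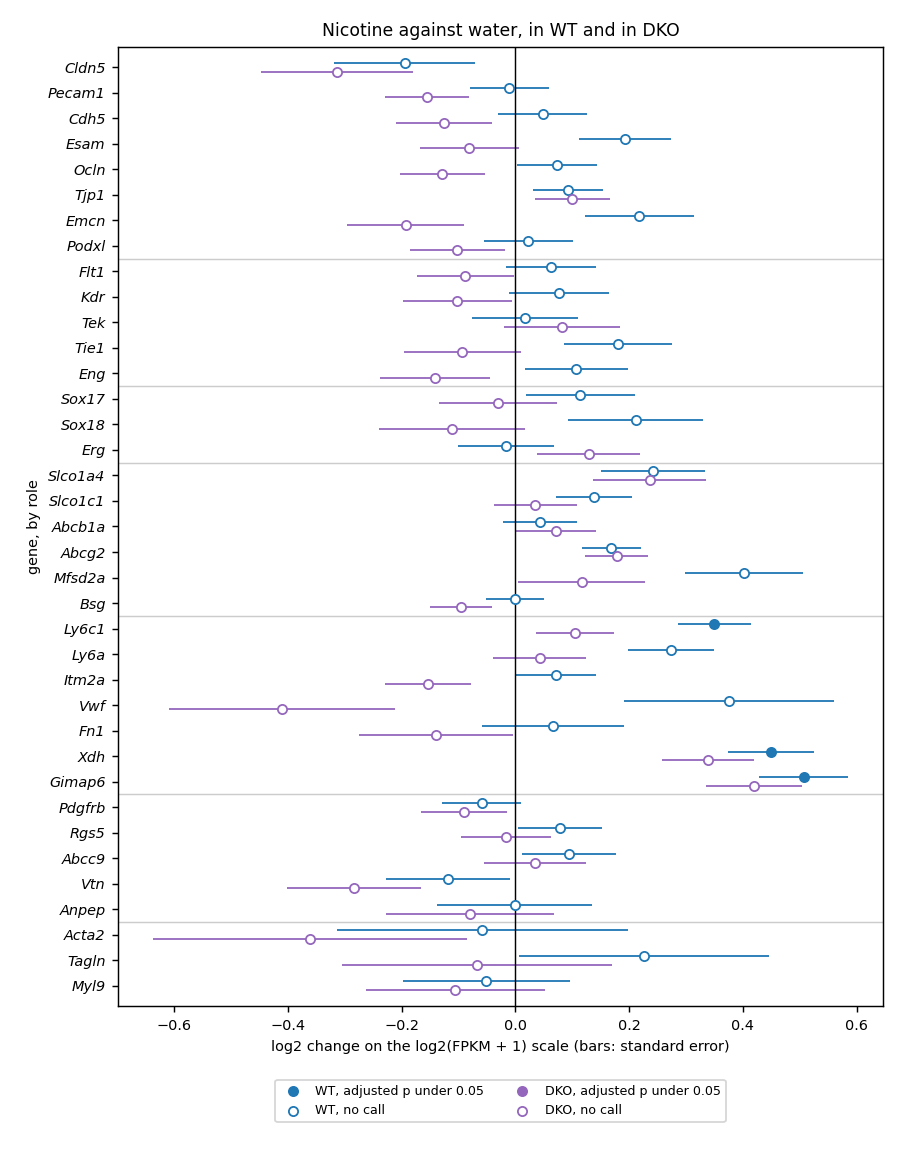
Difference of nicotine from water for each of the 37 genes, on the log2(FPKM + 1) scale, in WT (blue) and DKO (purple); bars are standard errors, and filled points had an adjusted p under 0.05. Gimap6, Xdh and Ly6c1 in WT are the 3 filled points, and most DKO points lie left of the WT point of the same gene.

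Whether nicotine acted differently in the genotypes was tested by the interaction, the DKO difference minus the WT difference. All 4 Y-linked genes had a positive interaction (median 2.13, 0 called). A different action of nicotine in the genotypes therefore cannot be told apart from the Y-linked difference here. Limma called 0 of 37 members, 5 had an unadjusted p under 0.05, and limma voom called 0 as well. Over all tested genes, 0.0157% were called in either direction. The interaction was negative for 32 of 37 members, with a median of -0.15 beside 0.01 for all tested genes, and the values of different genes share the same libraries. The smallest p-values were those of Emcn (-0.41, SE 0.14), Vwf (-0.79, SE 0.27) and Ly6c1 (-0.24, SE 0.09), each with a limma adjusted p of 0.657. For Gimap6 and Xdh the interaction was -0.09 (95% interval -0.33 to 0.16) and -0.11 (95% interval -0.35 to 0.12).

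Other genes of the vessel wall were read from lists beside the 37. In DKO water, 17 of 42 further endothelial genes tested were called higher and 5 lower, beside 25.5% and 12.4% of all tested genes. Tfrc, the transferrin receptor, and Cd34 fell by 0.46 and 0.57 on the log2 scale, while the ETS factor Fli1 and the efflux pump Abcc4 rose by 0.61 and 0.45. In the nicotine groups 9 were higher and 6 lower in DKO, shares near the 24.6% and 11% of all tested genes. In WT, 3 of the 42 were called higher with nicotine and 0 lower, against 0.0943% and 0.0786% of all tested genes, in libraries that also differ in Y-linked expression: Klf4 (1.91 to 3.85 FPKM), Klf2 (5.77 to 10.1), both factors induced by blood flow, and the glucose transporter Slc2a1 (32.6 to 44.02). In DKO, limma called 0 with nicotine, 3 had an unadjusted p under 0.05, and Klf4 read 2.02, 2.17, 2.31 and 2.74 FPKM in water and 2.07, 2.24 and 2.53 in nicotine.

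Of 8 tested genes of inflamed endothelium, 6 rose and 1 fell in DKO water, beside 25.5% and 12.4% of all tested genes. Icam1 and Vcam1, adhesion molecules for leukocytes, went from 1.14 to 3.19 and from 6.63 to 9.48 FPKM, and the TNF receptor Tnfrsf1a from 4.72 to 9.62; microglia and astrocytes express these genes too. Ackr1, a chemokine receptor of veins, fell by 0.76, but its span overlaps that of the neural gene Cadm3. In nicotine 4 rose and 1 fell, beside 24.6% and 11% of all tested genes.

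Among 19 tested ligands and co-receptors of the VEGF, angiopoietin, TGF-beta, PDGF and Notch pathways, 6 rose and 3 fell in DKO water, and 7 rose and 4 fell in nicotine. The counts in water are near the 25.5% and 12.4% of all tested genes called higher and lower. In nicotine the shares over all tested genes were 24.6% and 11%. The VEGF co-receptor Nrp1 and the Tie2 ligand Angpt1 rose by 0.62 and 0.52 in water, and the growth factor Vegfa and the peptide Apln fell by 0.40 and 0.35. Beside those shares, 6 of 16 genes of the Wnt and Norrin pathway that induces the barrier rose and 0 fell in water. In nicotine 7 of these genes rose and 0 fell. They included Apcdd1, a Wnt target, from 10.1 to 15.4 FPKM in water, and the Norrin receptor components Tspan12 and Lrp5, by 0.41 and 0.39.

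Basement membrane genes were higher for 13 of 19 in water and 14 of 19 in nicotine, beside 25.5% and 24.6% of all tested genes. In both comparisons 0 were lower. Sparc, a matrix glycoprotein that glia also make, went from 56.3 to 155 FPKM in water, and the laminin subunit Lamb2 and the integrin subunit Itga5 rose by 0.48 and 0.60. Pxdn, peroxidasin, which crosslinks collagen IV, was the 1 gene of these vascular lists called with nicotine in DKO, at 11.5, 12.04, 11.5 and 12.4 FPKM in water and 15.5, 16.1 and 15.1 in nicotine (log2 change 0.37, SE 0.06, limma adjusted p = 0.0301). The Pxdn call was lost in a fit of only the groups compared (adjusted p = 0.126 in limma) and without DKO water replicate 1, 2 or 3 or DKO nicotine replicate 1 or 2 (0.0585 to 0.101). Of 25 further pericyte and smooth muscle genes, 8 rose and 0 fell in each genotype comparison, where 25.5% (water) and 24.6% (nicotine) of all tested genes were higher, among them the tropomyosins Tpm1 and Tpm2 by 0.25 and 0.62 in water.

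Markers of other cells changed too, in a water comparison where 25.5% of all tested genes were called higher and 12.4% lower. Of 16 perivascular fibroblast and meningeal markers, 9 rose and 0 fell in DKO water, and their sum was 107 to 121 FPKM in WT water, 86.0 to 119.6 in WT nicotine and 135 to 181 in DKO water. In DKO nicotine that sum was 103 in replicate 1, 155 in replicate 2 and 189 in replicate 3, and Vtn and Pdgfrb were likewise lowest in replicate 1 and highest in replicate 3. Microglia markers were higher for 9 of 10 genes in DKO water (sum 187 to 223 FPKM in WT water and 697 to 797 in DKO water), perivascular macrophage markers for 4 of 6 tested (5.42 to 7.45 and 9.22 to 12.9) and astrocyte markers for 10 of 10 (773 to 867 and 1326 to 1449). Oligodendrocyte markers were higher for 4 of 6 (797 to 896 and 886 to 1100.5), and for 3 of 6 in nicotine. Excitatory neuron markers were lower for 7 of 8 (3207 to 3316 and 2585 to 2803). Blood cell markers were called for 0 of 7 in each genotype comparison by limma, with 1 unadjusted p under 0.05 in water and 0 in nicotine, and summed to 77.5 to 232 FPKM over all libraries. Choroid plexus markers summed to 2.08 to 28.6 FPKM, the highest in DKO water replicate 4. The part of these other cells in the vascular differences was not tested.

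**Figure D5:**
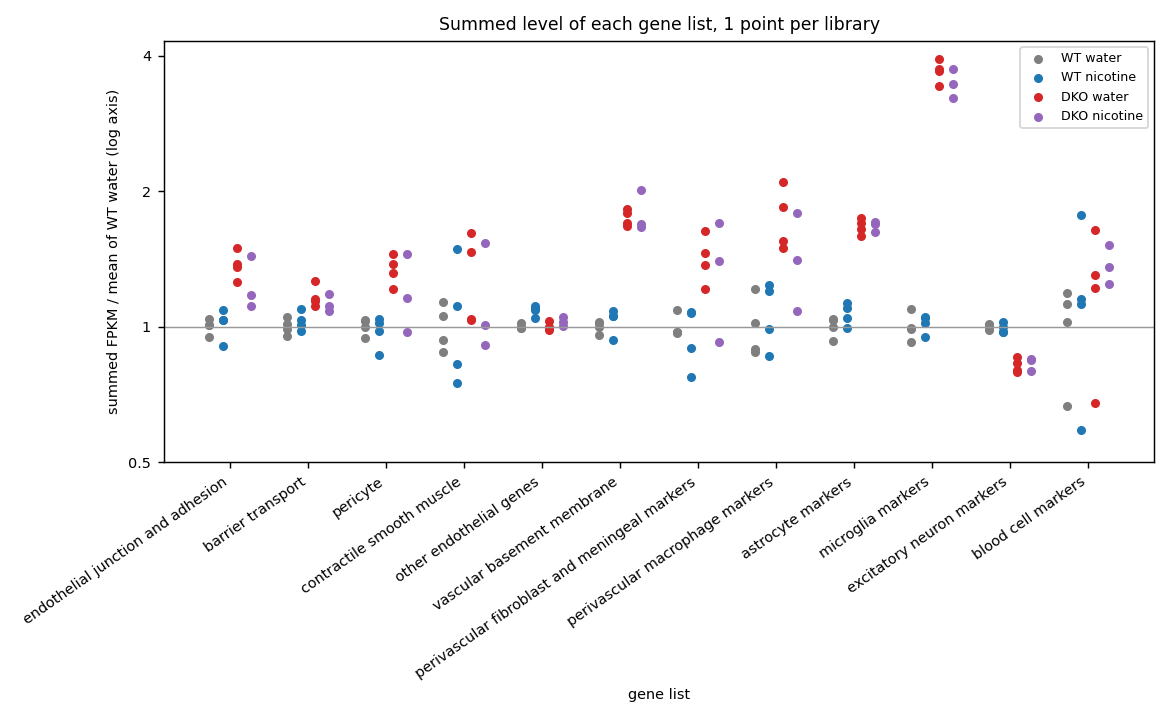
Summed FPKM of gene lists in each library (points, coloured by group) divided by the mean of the 4 WT water libraries, on a log axis. Junction, pericyte and basement membrane sums are higher in DKO water than in WT water without overlap, as are fibroblast, microglia and astrocyte sums, while the sum of the other endothelial genes differs little.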

How the data were processed

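Total RNA, taken up in TRIzol, went into TruSeq Stranded mRNA libraries, per the labels' protocols. Per the submitters' processing notes, reads were placed on GRCm38.p6. The aligner, the counter and any use of strand are details not given in the sources used here. The authors deposited 1 table of FPKM values per gene for each library. Steps in these values gave whole reads for 100% of tested genes, within 0.02 reads, and so the reads per library. Of 21878 rows, 3760 were at 0 in every library, and 27 names turned into dates were restored from gene numbers.

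The scale of analysis was log2(FPKM + 1), over 12728 genes that reached 1 FPKM in 3 or more libraries. Limma 3.58.1 in R 4.3.3 was fitted to all 15 libraries with an intensity trend, 1 term per group and no block. P-values were adjusted by Benjamini-Hochberg within each comparison over all tested genes. The fit was tested on simulated reads, with 200 genes changed per comparison. A 1.25-fold change was recovered for 71.6% of the genes given it between genotypes in water. This was 52.2% for nicotine in DKO and 29.9% in the interaction. For a 1.5-fold change the shares were 92.5%, 83.6% and 76.1% in the same order, so small differences could be missed. The 37 genes and all lists were chosen with earlier results of these data known. Within each role, libraries are printed for up to 3 called genes with the smallest adjusted p per comparison, or for the most abundant gene where a role had no call. In other lists, up to 4 called genes were eligible, and for the interaction the 3 members with the smallest p. Vwf, Mfsd2a, Slco1a4, Acta2, Tagln, Kdr and Eng, the remaining members, and Klf4 in the DKO libraries are given beyond that rule, after their values were seen. Alternatives were median-of-ratios rescaling, no filter, a filter at 5 FPKM, a pseudocount of 0.1, no trend, only the groups compared, a replicate block, limma voom on recovered reads, and leaving out each library. Autosomal genes only and the comparison averaged over genotypes were added after seeing the data. Promoter windows came from RefSeq. Python 3.11.15, pandas 2.3.3 and matplotlib 3.10.9 made tables and plots.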

Additional observations from a re-analysis of the deposited data

Results flagged for a closer look

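Of 111 groups of 4 libraries examined (37 genes in 3 groups), 3 held a library whose distance to its nearest neighbour, relative to the range of the group, passed the 95% limit of Dixon's test, which chance passes in about 1 of 20 groups. Cdh5 read 3.68 FPKM in WT nicotine replicate 4, below the other libraries of that group. Tek read 3.21 FPKM in WT water replicate 3, below its group, and Vwf read 3.89 FPKM in WT water replicate 4, above its group.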

How the results depend on the processing

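No result reversed its direction with a call, and the count of 21 higher in DKO water was 16 to 24 under the alternatives that kept all libraries, 16 with the filter at 5 FPKM, which tests fewer members. In the nicotine groups, the count lower in DKO was 3 after median-of-ratios rescaling (Vwf, Kdr and Eng), 0 with no filter and 0 in a fit of only the groups compared; the cause was not tested. With nicotine in WT, the count higher was 1 with the filter at 5 FPKM, which leaves out Gimap6 and Xdh, and 1 with limma voom (Xdh). In DKO, limma voom called 1 higher. For nicotine averaged over genotypes, the count higher was 2 with no filter, 2 with the filter at 5 FPKM and 2 with the replicate block; the cause was not tested. Leaving out 1 library at a time gave 18 to 23 higher in DKO water, 7 to 14 higher and 0 to 1 lower in DKO nicotine against WT nicotine, 1 to 4 higher with nicotine in WT, 0 to 2 higher and 0 to 1 lower with nicotine in DKO, and 2 to 5 higher and 0 to 2 lower in the average. Of the 3 calls in WT, 1, Gimap6, remained without WT water replicate 2 or 3 or WT nicotine replicate 1 or 3. Rescaling moved the median of all genes by -0.06 in water and -0.07 in nicotine between genotypes.

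Libraries of different groups share only a replicate number. Over 21 pairs with the same number, deviations from the group means correlated at -0.21 to 0.16 (median -0.01, computed across genes), and 2 of 15 libraries matched their own number best. With that replicate block, the counts were 21 higher in water between genotypes, 8 higher and 1 lower in nicotine, 2 higher with nicotine in WT, and 0 in DKO and in the interaction.

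Gimap6 rests on 38 to 84 reads a library; how recovery falls with read depth was not tested.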
